A study of Mus musculus with 7 samples.

Results

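Imprinted genes are expressed mainly from the allele of 1 parent, a choice set by DNA methylation marks that differ between egg and sperm and are kept in the body of the offspring. Several of them form a network that drives growth before birth and in young animals and is then turned down, and others restrain growth. The genes described here are 10 members of that network, of 24328 gene symbols listed in each file: the mainly paternally expressed Igf2, Dlk1, Plagl1, Mest, Peg3 and Ndn and the mainly maternally expressed H19, Meg3, Cdkn1c and Grb10. They and the gene lists set beside them were chosen by name, with earlier results of these data known. All 10 members passed the filter on low values. Expression was measured by poly(A) RNA-seq of the right kidney in 3 LBR-null mice (genotype Lbric-J/ic-J, called 4001, 4002 and 4007) and 1 wild-type (WT) littermate (Lbr+/+, mouse 4009), all C57BL/6J and 4 weeks old, with no treatment. LBR, the lamin B receptor, is a protein of the inner nuclear membrane that holds heterochromatin at the nuclear edge, and the ic-J allele is a germline loss-of-function allele, so its effect is not limited to a cell type or an age. The study used these mice to ask how gene expression changes when heterochromatin loses that attachment. A single library was made for mouse 4002 and 2 for each of the other mice, and libraries of a mouse were averaged. The data do not separate the parental alleles.

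The libraries held 20694016 to 26333284 reads on genes, and 1 read was worth 0.787 to 1.15 normalized counts, the deposited unit. Lbr RNA ranged from 314 to 495 normalized counts in the LBR-null libraries and was 416 and 381 in the WT libraries, so the transcript level did not separate the genotypes. Kidney markers of the proximal tubule (6 listed) and of the distal tubule and collecting duct (7 listed) were all detected. The proximal tubule markers, however, were all below WT in every LBR-null library, with a summed level of 28342 to 40686 against 106542 and 108608 (median log2 fold change -1.85, and -2.21 without mouse 4001), and DESeq2 called 4 of the 6 lower. Of all genes tested, 25.7% lay below WT in every LBR-null library and DESeq2 called 3.48% lower. Mouse 4001 stood apart. Its libraries held 26380 and 37297 normalized counts of Myh6, the myosin heavy chain of atrial and adult heart muscle, against 210 to 716 in the other 5 libraries, and the summed level of 7 heart muscle genes was 71206 and 97503 against 516 to 1658. They also held both the X-inactivation RNA Xist (5352 and 6218) and the Y-linked Ddx3y (149 and 133). Mouse 4002 and the WT mouse had Ddx3y at 1269 to 1516 and Xist at 31.7 to 65.3, whereas mouse 4007 had Xist at 9718 and 10163 and Ddx3y at 39.2 and 49.4. Whether the libraries of mouse 4001 hold RNA of another tissue or animal was not tested, and every mean and SD over 3 LBR-null mice includes them. Sex and genotype were also mixed among the 4 mice. The log2 fold change of every member is also given without mouse 4001. With 1 WT mouse the spread between WT animals is unknown, and the test assumed that it equals the spread between LBR-null mice.

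Among the 10 genes, Peg3 stood highest against WT, at 6.44 times the WT level, and Mest and Ndn stood lowest, at 44.5% and 48.8% of WT. Without mouse 4001, H19 was the lowest, at 27.3% of WT, beside 42.4% for Mest and 50.9% for Ndn. H19 and Igf2 differed more between the LBR-null mice than between genotypes, and Plagl1, Meg3 and Grb10 lay near the WT level. No member passed the test (limma on log2(normalized count + 1), Benjamini-Hochberg adjusted p under 0.05 and at least 2-fold), nor did any other gene (0% of 17283 genes tested). At an unadjusted p under 0.05 there were 3 of the 10 members (Peg3, Mest and Ndn), against 18.8% of all genes tested. DESeq2 on the reads of each mouse called Peg3 higher and Mest lower, where it called 3.24% of genes higher and 3.48% lower. The edgeR quasi-likelihood test called none of the members and 0.162% of all genes. With the 6 numbered libraries taken as replicates, which makes p-values too small, limma called 3 members, against 15.8% of all genes with a replicate block and 17.6% without. In mouse means, 1 member (Peg3) was at least 2-fold higher and 2 (Mest and Ndn) at least 2-fold lower, against 14.5% and 7.04% of all genes. Every LBR-null library exceeded both WT libraries for 1 of the 10 members (Peg3), against 25.5% of all genes, and fell short of both for 3 (Mest, Ndn and Cdkn1c), against 25.7%. The median log2 fold change of the members was -0.17, beside 0.01 for all genes tested. Without mouse 4001 these medians were -0.24 and 0.01, but the median of the members turned to 0.152 without mouse 4007, 0.161 with edgeR and 0.166 with DESeq2, so its sign is not settled.

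**Figure D1:**
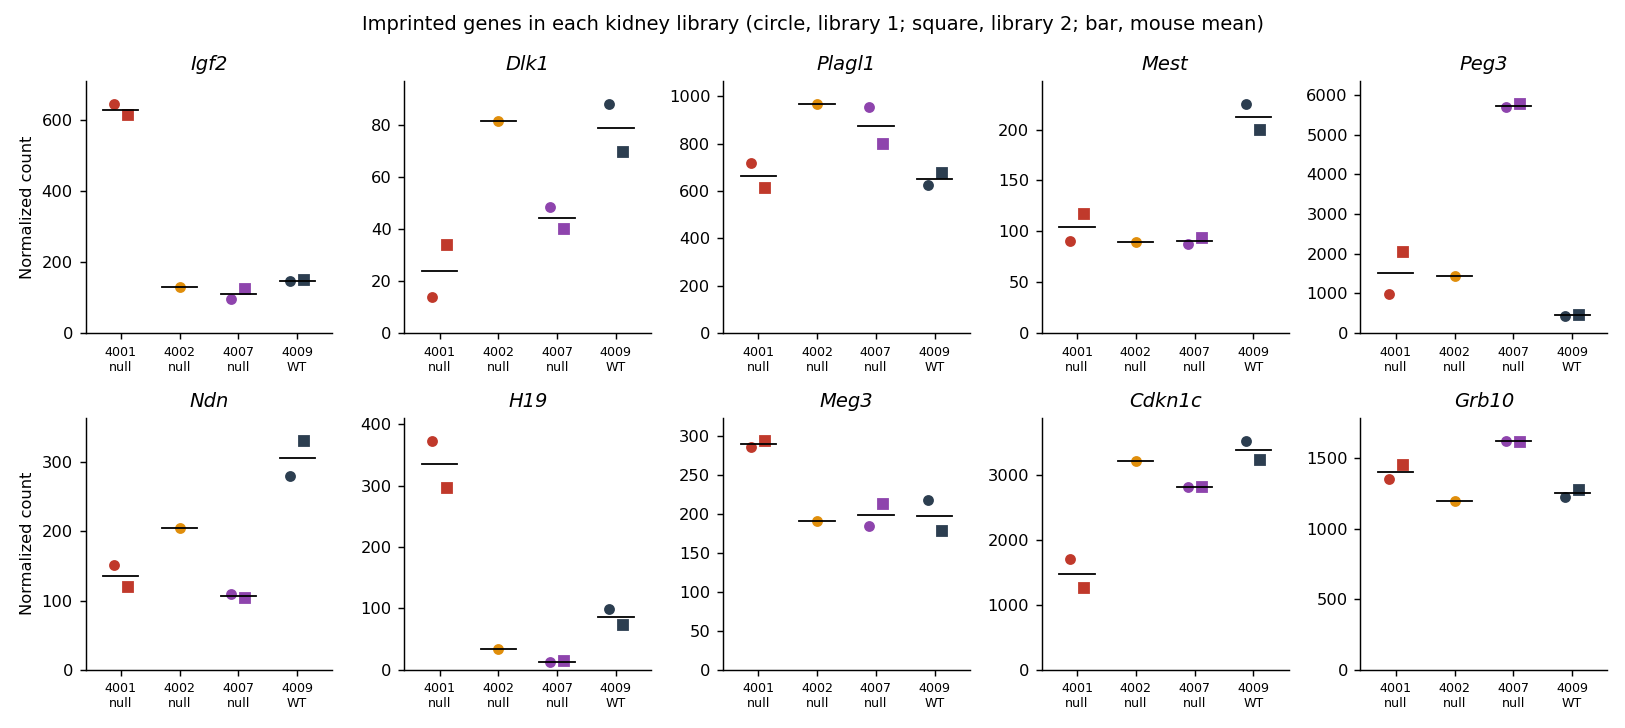
Normalized count (vertical axis, from 0) of each of the 10 imprinted genes in the 7 kidney libraries, by mouse, with the mouse mean as a bar. Peg3 was at 981 to 5776 in the LBR-null libraries against 435 and 462 in WT, Mest and Ndn lay below WT in every LBR-null library, and Igf2 and H19 were highest in mouse 4001.

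Promoter stretches are shown here for the genes that differed most, so that a reader can see their CpG content. That of Zim1, a neighbour of Peg3 that was also higher, is added. The study divides genes by CpG islands at their start. It draws that class from sequence-defined islands and regions bound by CxxC protein domains around the start. For genes without islands, it also looks along the gene body. CpG counts before a start are a different measure and do not give the class of a gene. The stretches lie just before a RefSeq start of the gene and hold no annotated exon. They are written 5′ to 3′ on the strand of the gene, with CpG dinucleotides in capitals. The letters come from RefSeq promoter windows (GRCm38.p6) and were placed on mm9, the build used in the study, by exact match. The stretch at Peg3 (chr7:6683133-6683293, minus strand) spans the gap between the RefSeq starts of Peg3 and Usp29, which are 164 bases apart and read away from each other. The mm9 gene models of GENCODE, used for all other positions, hold a single exon of Usp29 230.7 kb from Peg3 and do not show this start. The Mest start used is the one farthest downstream of those listed, and it lies inside the gene as GENCODE places it. The stretches at Zim1 (chr7:6649162-6649393, minus strand), Mest (chr6:30687803-30688049, plus strand) and Ndn (chr7:69492913-69493162, plus strand) follow.
Peg3: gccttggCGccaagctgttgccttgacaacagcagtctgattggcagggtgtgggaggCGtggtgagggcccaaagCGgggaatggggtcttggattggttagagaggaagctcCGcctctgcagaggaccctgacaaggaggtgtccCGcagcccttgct
Zim1: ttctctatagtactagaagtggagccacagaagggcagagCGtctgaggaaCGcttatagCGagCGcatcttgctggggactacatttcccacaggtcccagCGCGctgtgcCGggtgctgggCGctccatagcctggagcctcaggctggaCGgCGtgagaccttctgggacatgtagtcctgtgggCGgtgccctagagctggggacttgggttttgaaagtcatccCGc
Mest: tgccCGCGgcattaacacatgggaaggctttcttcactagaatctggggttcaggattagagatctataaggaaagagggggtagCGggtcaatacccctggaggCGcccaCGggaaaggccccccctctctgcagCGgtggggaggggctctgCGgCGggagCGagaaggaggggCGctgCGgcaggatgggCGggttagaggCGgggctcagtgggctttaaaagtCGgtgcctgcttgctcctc
Ndn: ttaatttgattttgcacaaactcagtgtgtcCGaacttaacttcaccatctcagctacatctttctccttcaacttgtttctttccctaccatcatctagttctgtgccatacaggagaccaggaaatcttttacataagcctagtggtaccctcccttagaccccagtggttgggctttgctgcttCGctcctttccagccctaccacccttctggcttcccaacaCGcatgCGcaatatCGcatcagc
The whole windows of 250 bases, of which these are parts, held 8 CpG at Peg3, 14 at Zim1, 14 at Mest and 5 at Ndn. The window at the Mest start farthest upstream held 7. A window of the 250 bases before the start was listed for 8 of the 10 members (not for H19 and Cdkn1c), and the median over all 32851 windows was 6 CpG. None of the member windows, nor those of Usp29 and Zim1, held the letters GCCATNTT, a core of the motif of YY1, on either strand, and 3.91% of all windows did. The letters GGNGGCAG, a part of the motif of CTCF, the factor that separates the Igf2 and H19 domains, were found in 1 window of Igf2 and in 9.93% of all windows, and neither search overlaps the other. Only the 250 bases before each listed start were searched, so sites inside a gene, farther away or at H19 could not be found. The lack of a match therefore does not show that a gene lacks such sites, and a match is no evidence of binding.

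Peg3 encodes a large zinc finger protein that binds DNA and is known for its part in maternal care, body temperature and growth, and it lies at chr7:6656603-6683132 (mm9, minus strand, 10 exon blocks). Its normalized count was 981 and 2038 in mouse 4001, 1429 in mouse 4002 and 5694 and 5776 in mouse 4007, against 435 and 462 in the WT mouse. Every LBR-null library was above both WT libraries, and mouse 4007 lay 12.8 times above WT where mice 4001 and 4002 lay 3.36 and 3.18 times above it. The LBR-null mean was 2891 ± 2463 (SD, n = 3 mice), so the spread between LBR-null mice nearly equalled their mean. The log2 fold change was 2.36 (SE 0.77, 95% interval 0.50 to 4.22), with an adjusted p of 0.176 (limma). Without mouse 4001 it was 2.67, with an adjusted p of 0.0678. DESeq2 gave 2.69 (adjusted p = 0.00616), edgeR 2.68 (adjusted p = 0.204), and DESeq2 without mouse 4001 gave 2.99 (adjusted p = 0.232), which ended its call. Without mouse 4002 the limma value was 2.71 and passed the threshold (adjusted p = 0.0496), as did 2.29% of all genes in that direction, and without mouse 4007 it was 1.71 (adjusted p = 0.203). The 2 libraries of mouse 4001 differed by 2.08 times for Peg3, more than those of mouse 4007 (1.01 times) or of the WT mouse (1.06 times).

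Peg3 shares its imprinted domain with Usp29, a paternally expressed gene for a deubiquitinase, and with the zinc finger genes Zim1, Zim2 and Zim3. Zim1, which is expressed from the maternal allele and lies 7.4 kb from Peg3, was at 141 and 321 in mouse 4001, 50.7 in mouse 4002 and 216 and 187 in mouse 4007, against 38.6 and 34.4 in WT. Usp29 was at 21.8 and 8.87 in mouse 4001, 6.88 in mouse 4002 and 14.9 and 7.29 in mouse 4007, against 3.15 and 1.81 in WT. Zim3, added after its values were seen, was at 9.19 and 12.4, 19.8, and 21.4 and 21.9 in the same order, against 1.57 and 2.71 in WT. Usp29 and Zim3 had a WT mean under 5 and passed the filter on low values only through the LBR-null mice, so that these 2 lie above WT is no separate evidence. Zim1, which would have passed in WT alone, lay above WT in every LBR-null library, as did 25.5% of all genes. The log2 fold change was 1.84 for Zim1 (adjusted p = 0.309, limma), and as a description 1.74 for Usp29 and 2.49 for Zim3. Without mouse 4001 they were 1.45, 1.49 and 2.79. Without mouse 4002, Zim1 passed the threshold (log2 fold change 2.53, adjusted p = 0.0215, limma). Usp29 and Zim3 rested on under 30 normalized counts a library. Within 300 kb of Peg3, 12 other genes of the GENCODE models were listed in the files, and 2 of these (Zim1 and Usp29) passed the filter on low values. Zim3 has no entry under that name in those models and is not among the 12. Zim2 was at 0 to 4.66 and was not tested.

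**Figure D2:**
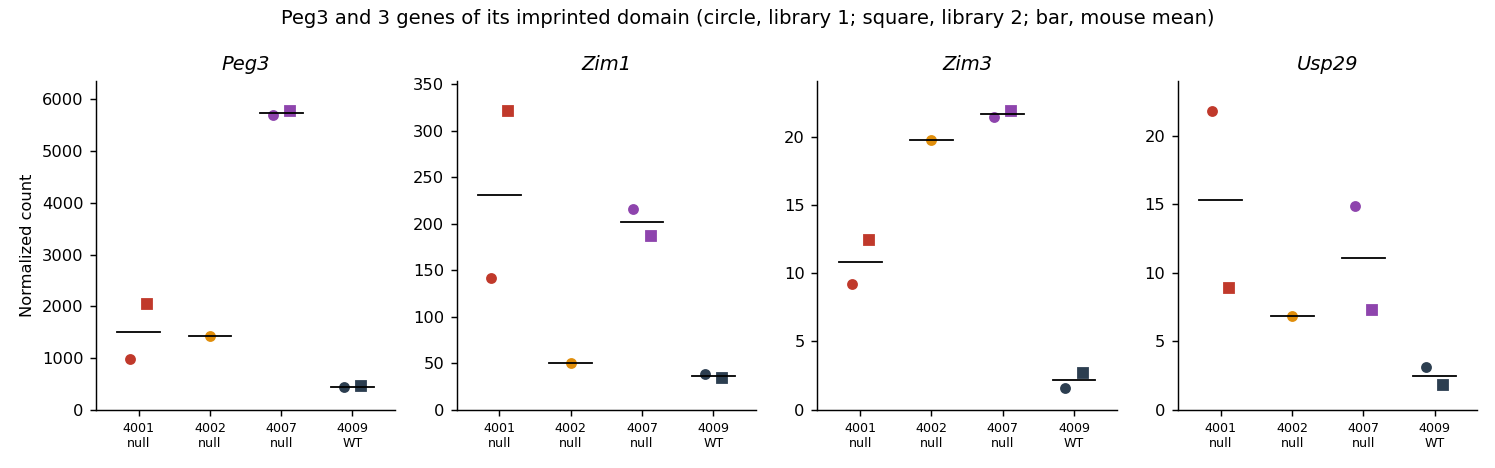
Normalized count (vertical axis, from 0) of Peg3, Zim1, Zim3 and Usp29 in the 7 libraries, by mouse, with the mouse mean as a bar. Each LBR-null library lay above the WT libraries for Peg3 and Zim1, as for 25.5% of all genes. Usp29 and Zim3 passed the filter on low values only through the LBR-null mice, so that they lie above WT is no separate evidence. Mouse 4007 was highest for Peg3, and mouse 4001 was highest for Zim1 and Usp29.

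Mest, which encodes an enzyme of the alpha/beta hydrolase fold found in the endoplasmic reticulum, is known for its expression in embryonic mesoderm and in growing fat tissue. Its normalized count was 90.7 and 117 in mouse 4001, 89.4 in mouse 4002 and 87.5 and 93.9 in mouse 4007, against 225 and 200 in WT. The LBR-null mice lay close together (94.7 ± 8.03, SD, n = 3), and every library was below WT. The log2 fold change was -1.16 (SE 0.33, 95% interval -1.97 to -0.36), with an adjusted p of 0.144 (limma). Without mouse 4001 it was -1.23 (adjusted p = 0.0512), edgeR gave -1.18 (adjusted p = 0.140) and DESeq2 gave -1.18 (adjusted p = 0.0421). With edgeR and without mouse 4001 Mest passed the threshold (adjusted p = 0.0399), and DESeq2 kept its call there (adjusted p = 0.0398), where these tools called 4.31% and 4.48% of all genes lower and 2.57% and 2.92% higher. Mest lies at chr6:30673547-30698457 (plus strand, 18 exon blocks) and shares 904 exon bases with Copg2 on the opposite strand. Whether the counting used strand is not given in the sources used here, so reads of this overlap cannot be assigned, and Copg2 itself was at 1086 to 1596 in the LBR-null libraries and 1200 and 1203 in WT.

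Ndn, a single-exon gene at chr7:69493163-69494814 (plus strand), encodes necdin, a MAGE family protein that restrains cell division in neurons. Its normalized count was 152 and 120 in mouse 4001, 205 in mouse 4002 and 109 and 104 in mouse 4007, against 280 and 331 in WT. The groups did not overlap, with mouse 4002 nearest to WT. The log2 fold change was -1.08 (SE 0.43, 95% interval -2.11 to -0.05, adjusted p = 0.244, limma), and -1.04 without mouse 4001 (adjusted p = 0.149).

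Marker genes of other cell types were also below WT in part. The summed level of 6 adipocyte markers was 65.3 to 296 in the LBR-null libraries against 1500 and 1501 in WT, with 5 of the 6 below WT in every library, against 25.7% of all genes. The summed level of 8 stromal markers was 11999 to 22808 against 39057 and 39723, with 4 of 8 below WT in every library against the same 25.7%, namely Col1a1, Col1a2, Col3a1 and Pdgfrb. The other 4 overlapped WT, with Lum, Postn and Fbln1 above WT in mouse 4001 and below it in mice 4002 and 4007, and Pdgfra at 1.23 and 1.49 times WT in mice 4002 and 4007. The summed level of 5 nephron progenitor markers was 338 to 618 against 923 and 1011, with 3 of 4 tested below WT in every library, and 3 of 4 smooth muscle markers lay below as well (3673 to 6122 against 9750 and 9905), again beside 25.7% of all genes. The proximal tubule markers, all below WT, moved the same way. Of 7 distal tubule and collecting duct markers, 1 lay above and 1 below WT in every LBR-null library (median log2 fold change 0.29). Of 6 endothelial markers, 2 lay below and none above (median -0.23, and -0.10 without mouse 4001). The shares of all genes were 25.5% above and 25.7% below. Without mouse 4001, limma called 4 adipocyte, 6 stromal, 4 proximal tubule, 3 smooth muscle and 1 nephron progenitor marker lower, against 3.48% of all genes. The part of these cell types in the Mest and Ndn values was not tested, and in whole kidney fewer cells of a type cannot be told apart from less RNA per cell.

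**Figure D3:**
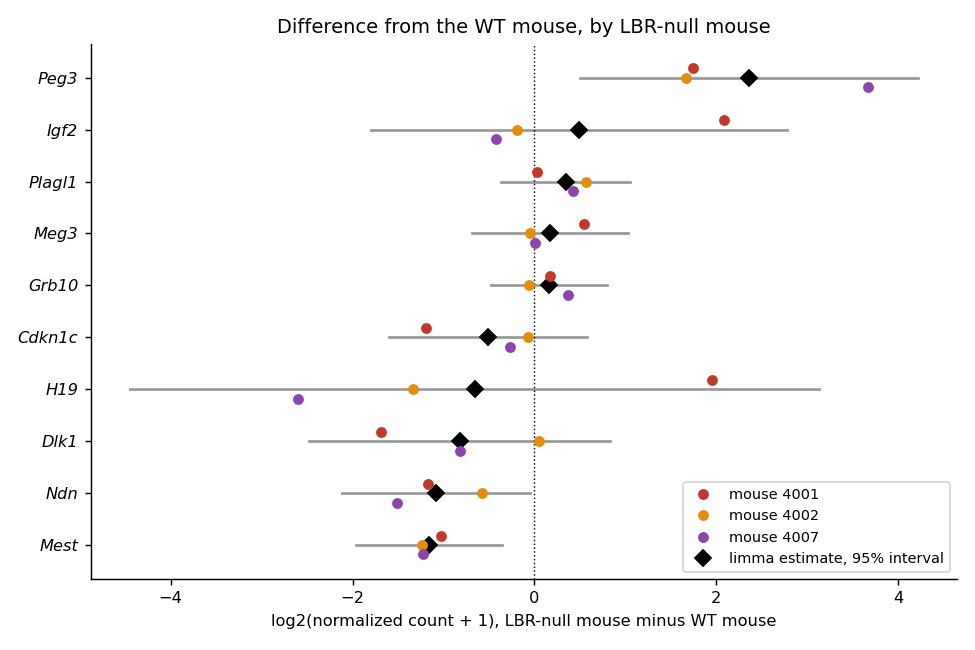
Difference in log2(normalized count + 1) between each LBR-null mouse and the WT mouse (circles), with the limma estimate (diamond) and its 95% interval (line), for the 10 genes. The mice agree in sign for Peg3, Plagl1, Cdkn1c, Ndn and Mest, and mouse 4001 lies on the other side of 0 from mice 4002 and 4007 for Igf2 and H19.

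Igf2 and H19 are neighbours under 1 imprinting control. Igf2 encodes insulin-like growth factor 2, the main growth factor of the fetus, and H19 is a non-coding RNA that restrains growth. Igf2 (chr7:149836673-149852721, minus strand) was at 646 and 615 in mouse 4001, 129 in mouse 4002 and 96.9 and 123 in mouse 4007, against 146 and 149 in WT. H19 (chr7:149761434-149764048, minus strand) was at 373 and 296, 33.5, and 13.04 and 13.7 in the same order, against 99.2 and 72.4 in WT. Both were highest in mouse 4001, at 4.28 and 3.90 times WT, and both were below WT in every library of mice 4002 and 4007. The LBR-null mean of Igf2 was 290 ± 295 (SD, n = 3) and that of H19 was 127 ± 180, and the mice spanned 25.1 times for H19. The log2 fold change of Igf2 was 0.49 (95% interval -1.79 to 2.78, adjusted p = 0.820, limma), and without mouse 4001 it was -0.31 (adjusted p = 0.518). For H19 the mean count was 1.48 times WT, while the log2 fold change was -0.66 (95% interval -4.45 to 3.13, adjusted p = 0.862), as a mean of counts gives mouse 4001 more weight than a mean of logs does. Without mouse 4001, H19 was at 27.3% of WT, with a log2 fold change of -1.96 (SE 0.58, adjusted p = 0.0878, limma). Of the 10 members, 2 lay above and 5 below both WT libraries in every library of mice 4002 and 4007, against 35.8% and 35.1% of all genes.

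Heart genes were high in the same libraries. All 7 heart muscle markers were far higher in mouse 4001 than in any other library (median log2 difference from WT 6.51, against 0.72 in both other LBR-null mice). The atrial hormone gene Nppa, for example, was at 14200.1 and 18457 in mouse 4001, 133 to 379 in the other LBR-null libraries and 38.0 and 39.4 in WT. Stromal markers were split in mouse 4001. Lum was at 953 and 1163 against 27.9 to 147 elsewhere, and Postn and Fbln1 were also above WT. Col1a1, Col1a2, Col3a1 and Pdgfrb were below WT. The summed level of the 8 stromal markers was 22808 and 22077 in mouse 4001, against 39057 and 39723 in WT. The summed level of 6 skeletal muscle markers was 1312 and 1126 in mouse 4001 against 40.7 to 116 elsewhere, given as a description. Myh4, 1 of these markers, passed the filter only through the LBR-null mice, so no median is drawn. Of the other 5, 1 lay above WT in every LBR-null library, against 21.9% of all genes with a mean of at least 5 in both groups. The 3 genes whose profile over the 7 libraries was nearest to that of Igf2, looked up after its values were seen, were Mtus2, Nrap and Abcc8, and those nearest to H19 were Klhl30, Kcnh2 and Mylk3. The part of heart, skeletal muscle and stromal tissue in the Igf2 and H19 levels of mouse 4001 was not tested.

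**Figure D4:**
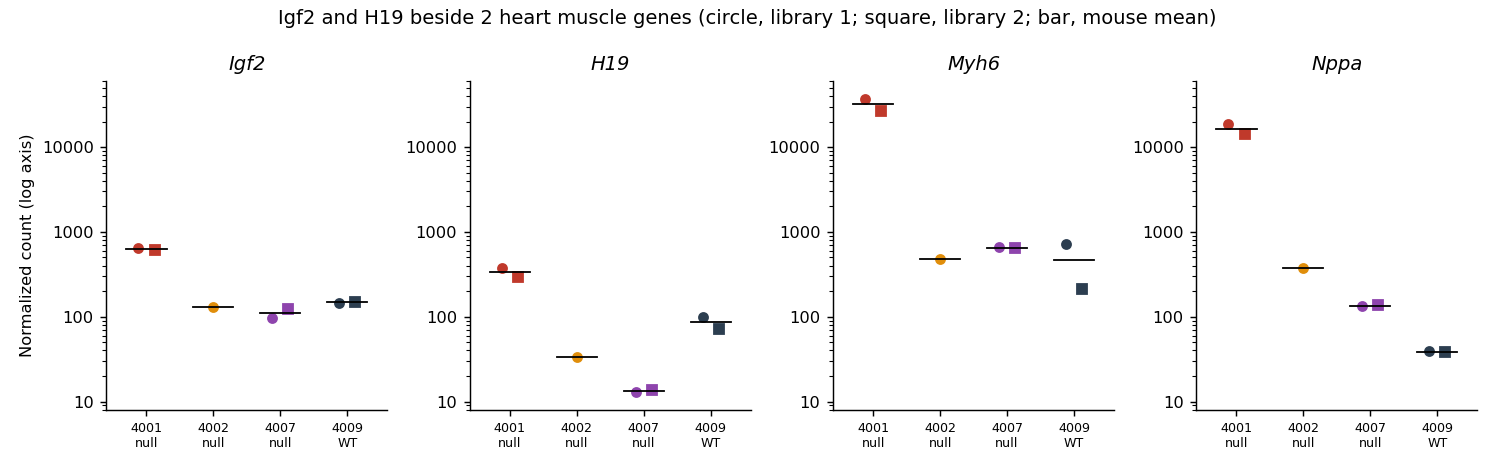
Normalized count (vertical log axis) of Igf2, H19 and the heart muscle genes Myh6 and Nppa in the 7 libraries, by mouse, with the mouse mean as a bar. All 4 genes were highest in mouse 4001, and Igf2 and H19 were below WT in mice 4002 and 4007.

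Dlk1 and Meg3 form another reciprocal pair, on chromosome 12. Dlk1 encodes a membrane protein related to Notch ligands that holds back the maturation of fat and other precursor cells, and Meg3 is a maternally expressed non-coding RNA. Dlk1 (chr12:110691033-110701546, plus strand) was at 13.8 and 33.7 in mouse 4001, 81.7 in mouse 4002 and 48.4 and 40.1 in mouse 4007, against 88.2 and 69.7 in WT. Mouse 4002 lay within the WT range and the other mice below it (log2 fold change -0.82, 95% interval -2.47 to 0.83, adjusted p = 0.567, limma). At 12 and 38 reads, the libraries of mouse 4001 differed by 2.45 times. Meg3 (chr12:110779211-110809936, plus strand) was at 287 and 295, 192, and 185 and 213 in the same order of mice, against 218 and 178 in WT. Only mouse 4001 lay above WT (log2 fold change 0.17, 95% interval -0.69 to 1.03, adjusted p = 0.836, limma), and without it the value was -0.02. Meg3 shares 1228 exon bases with a non-coding gene on the opposite strand, so its count is uncertain in the same way as that of Mest. Dlk1 is also high in adrenal cortex and medulla, and the summed level of 8 adrenal markers was 177 to 229 in the LBR-null libraries against 120 and 133 in WT. Of the 8, 3 were tested, and Hsd3b1 and Cyp21a1 passed the filter only through the LBR-null mice, so no count or median is drawn from them. Star was at 143 to 207 against 114 and 128, Hsd3b1 at 7.99 to 21.0 against 0 and 0.905, and Cyp21a1 at 2.73 to 19.8 against 1.57 and 2.71. Of the defining markers, Cyp11b2 and Th were at 0 to 0.931 in all libraries. The part of adrenal tissue in the Dlk1 values was not tested.

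Plagl1 acts within the network itself, while Cdkn1c and Grb10 restrain growth. Plagl1 (chr10:12810497-12851500, plus strand) encodes a zinc finger transcription factor that acts on other genes of the imprinted network. It was at 718 and 611 in mouse 4001, 968 in mouse 4002 and 955 and 798 in mouse 4007, against 624 and 677 in WT. Mice 4002 and 4007 lay above WT and mouse 4001 overlapped it (log2 fold change 0.34, 95% interval -0.36 to 1.05, adjusted p = 0.574, limma). Cdkn1c (chr7:150644255-150646955, minus strand) encodes p57, an inhibitor of cyclin-dependent kinases that is present in the podocytes of the mature kidney. It was at 1711 and 1257, 3222, and 2826 and 2819, against 3535 and 3235 in WT. All LBR-null libraries were below WT, but mouse 4002 by less than the libraries of the WT mouse differed from each other (log2 fold change -0.51, 95% interval -1.60 to 0.58, adjusted p = 0.594, limma). All 6 podocyte markers were below WT in mouse 4001, as was Cdkn1c. Their summed level was 8190 and 9161 in mouse 4001, 15942 to 17394 in mice 4002 and 4007 and 20871 and 20943 in WT, with 5 of 6 below WT in every LBR-null library, against 25.7% of all genes. The other marker, Wt1, went the other way in mice 4002 and 4007 (1.74 and 1.84 times WT) and was at 0.620 times WT in mouse 4001. The part of podocytes in the Cdkn1c value was not tested. Grb10 (chr11:11830511-11938686, minus strand) encodes an adaptor that binds the insulin and IGF1 receptors and damps their signal. It was at 1357 and 1454, 1198, and 1626 and 1615, against 1223 and 1279 in WT, and the groups overlapped (log2 fold change 0.16, 95% interval -0.48 to 0.80, adjusted p = 0.788, limma). Without mouse 4001 the log2 fold changes were 0.50 for Plagl1 (adjusted p = 0.159), -0.17 for Cdkn1c (0.645), 0.16 for Grb10 (0.705) and -0.39 for Dlk1 (0.599), all from limma.

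Per kilobase of exon, the level order in the WT kidney was Cdkn1c (1753 normalized counts per kb), Ndn (185), Grb10 (136), Plagl1 (89.3), Mest (54.0), H19 (36.2), Peg3 (33.7), Igf2 (26.8), Dlk1 (14.0) and Meg3 (10.96). The WT libraries of H19 and Peg3 overlapped, and those of the other neighbours in the order did not. In the LBR-null mice Cdkn1c again came first (1299 ± 471 per kb, SD, n = 3), Peg3 came next (217 ± 185) and Ndn after Grb10 and Plagl1 (90.1 ± 30.5). From Peg3 down to Mest each neighbour in the order overlapped the next over the 3 mice, as did Meg3 (12.6 ± 3.05) and Dlk1 (8.82 ± 5.19), so the order there is not resolved. Mest (24.0 ± 2.04 per kb) varied least between the mice.

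Profiles over the 7 libraries were compared by the root mean square distance of centred log2 values. Among members the nearest were Plagl1 and Grb10 (0.27), Meg3 and Grb10 (0.31) and Mest and Ndn (0.38), and the farthest were Peg3 and H19 (2.85). The genes nearest to Mest were Egflam (0.05), Slc16a6 (0.09) and Rgag4 (0.10), those nearest to Ndn were Mien1, Thnsl2 and Mrps25 (0.10 each), and those nearest to Peg3 were 5730457N03Rik (0.31), Trem1 (0.32) and Sult1e1 (0.37). Egflam was at 251 to 355 in the LBR-null libraries against 564 and 613 in WT. The genes nearest to Peg3 were low, with 5730457N03Rik at 2.30 to 13.04 against 0 in both WT libraries, and their distance is the largest of the 3.

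Of 39 other imprinted genes, 34 were tested and none passed limma. Of the 34, 5 (Usp29, Nespas, Rasgrf1, Dio3 and Ascl2) passed the filter only through the LBR-null mice and were left out of the counts that follow. Of the 29 with a mean of at least 5 in both groups, 9 lay above and 7 below WT in every LBR-null library, against 21.9% and 27.4% of all genes chosen alike, and the median log2 fold change was 0.16. Without mouse 4001, 11 lay above and 12 below, against 32.1% and 37.7%, and the median turned to -0.09. DESeq2 called 1 of them, Slc22a18, lower. Nespas, a non-coding RNA antisense to Nesp at the Gnas locus, was at 12.0 to 27.3 against 2.36 and 2.71 in WT. Slc22a18, which encodes a membrane transporter and lies in the imprinted cluster that also holds Cdkn1c and Phlda2, was at 3147 to 4449 against 10154 and 10303 (log2 fold change -1.45, adjusted p = 0.102, limma), and limma called it without mouse 4001 (-1.42, adjusted p = 0.0364) and without mouse 4002 (-1.57, adjusted p = 0.0467), where it called 3.48% and 1.85% of all genes lower. Phlda2, which restrains placental growth, was at 57.7 to 92.9 against 181 and 158, and Nnat, which encodes the small membrane protein neuronatin, was at 10.3 to 29.3 against 43.3 and 49.8. These 3 genes, named for the lowest log2 fold changes of the list, were below WT in every LBR-null library, as was Cdkn1c. Kcnq1, by contrast, was above WT in every LBR-null library (850 to 1027 against 781 and 726), and Kcnq1ot1 overlapped WT. A fall of the cluster as a whole was not tested. Snurf was listed at 0 in all libraries and Snrpn in all but 1. These genes overlap each other, and a listed 0 does not show that a gene is silent.

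Of 13 further genes of juvenile growth, 11 were tested, and 1 of these (Lin28a) passed the filter only through the LBR-null mice. Of the other 10, 3 lay above and 2 below WT in every LBR-null library, against 21.9% and 27.4% of all genes chosen alike (median log2 fold change 0.45, and 0.30 without mouse 4001). Lin28a, an RNA-binding protein that keeps cells in an early state, was at 7.10 to 17.3 in the LBR-null libraries with no read in either WT library. Set against 3 reads in each WT library, its LBR-null mean of 11.9 was at least 4.69-fold higher, which is given as a description. The chromatin protein gene Hmga2 was at 40.4 to 80.8 against 30.7 and 23.5, and Igf2bp1, whose protein binds Igf2 RNA, was at 198 to 267 against 116 and 126. The lowest were E2f3 (121 to 194 against 224 and 234), the Hedgehog signal transducer Smo (1339 to 1614 against 1736 and 1660) and the histone methyltransferase Ezh2, which overlapped WT (300 to 473 against 346 and 376).

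Relatives of the members from the same protein families were tested in full, and 5 of 7 lay above WT in every LBR-null library and none below, against 25.5% and 25.7% of all genes (median log2 fold change 0.86, and 0.73 without mouse 4001). Cdkn1a, which encodes the kinase inhibitor p21 of the family of Cdkn1c, was at 2401 to 5371 against 494 and 424, a mean of 7.93 times WT (log2 fold change 2.91, adjusted p = 0.0843, limma), and DESeq2 called it (adjusted p = 5.88e-08). Limma called Cdkn1a without mouse 4001 (2.61, adjusted p = 0.00963) and without mouse 4002 (3.17, adjusted p = 0.00381), where it called 2.52% and 2.29% of all genes higher. Cdkn1b, the gene of p27 in that family, was at 1734 to 2566 against 1169 and 1106, so of the 3 family members Cdkn1c alone was not above WT. Dlk2 was at 24.8 to 71.4 against 21.3 and 19.9, where Dlk1 was at or below WT. Grb7 was at 3086 to 3980 against 2114 and 1922, while Grb14 and Plagl2 overlapped WT, with log2 fold changes of -0.00 and -0.02.

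In the IGF pathway all 14 genes were tested, 7 lay above and 4 below WT in every LBR-null library, against 25.5% and 25.7% of all genes. DESeq2 called 2 higher and 2 lower, against 3.24% and 3.48%. The median log2 fold change was 0.43, and 0.54 without mouse 4001. The ligand gene Igf1 was at 448 to 990 against 1925 and 1913 (36.8% of WT, log2 fold change -1.50, adjusted p = 0.130, limma), where the ligand gene Igf2 was below WT in mice 4002 and 4007 alone. Igfals, which encodes the subunit that holds IGF in the circulating complex, was at 86.6 to 114 against 350 and 300. Among the binding proteins, Igfbp1 was at 400 to 4122 against 122 and 98.6, and Igfbp6, which prefers IGF2, was at 67.1 to 302 against 283 and 282 and overlapped WT in mouse 4001. The receptor substrate gene Irs2 was at 190 to 1066 against 68.5 and 91.4, and Pappa, a protease that frees IGF from Igfbp4, was at 580 to 1187 against 247 and 267. DESeq2 called Irs2 (adjusted p = 0.00343), Pappa (0.00616), Igf1 (0.0253) and Igfals (0.000477). Limma called Pappa higher and Igfals and Igfbp6 lower without mouse 4001 (adjusted p = 0.0253, 0.0283 and 0.0420), and Igfbp1 and Irs2 higher and Igf1 lower without mouse 4002 (adjusted p = 0.00124, 0.00672 and 0.0289). Of all genes, limma called 2.52% higher and 3.48% lower without mouse 4001, and 2.29% and 1.85% without mouse 4002.

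All 8 cell-cycle genes were below WT in every LBR-null library, and DESeq2 called all 8 lower, against 25.7% and 3.48% of all genes. Mki67, a marker of dividing cells, was at 41.9 to 117 against 1026 and 1077 (8.12% of WT, log2 fold change -3.72, adjusted p = 0.0870, limma), and -3.99 without mouse 4001 (adjusted p = 0.0116). Limma called 7 of the 8 lower without mouse 4001, against 3.48% of all genes, and 6 without mouse 4002, against 1.85%. The mitotic cyclin genes Ccnb1 and Ccna2 were at 8.60 to 26.6 against 128 in both WT libraries, and at 15.5 to 29.9 against 186 and 185. The least lower were Aurkb (17.1% of WT), Bub1 (23.9%) and Birc5 (34.9%). The median log2 fold change of the cell-cycle genes was -2.77 and without mouse 4001 it was -3.01, beside -0.17 for the imprinted members.

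**Figure D5:**
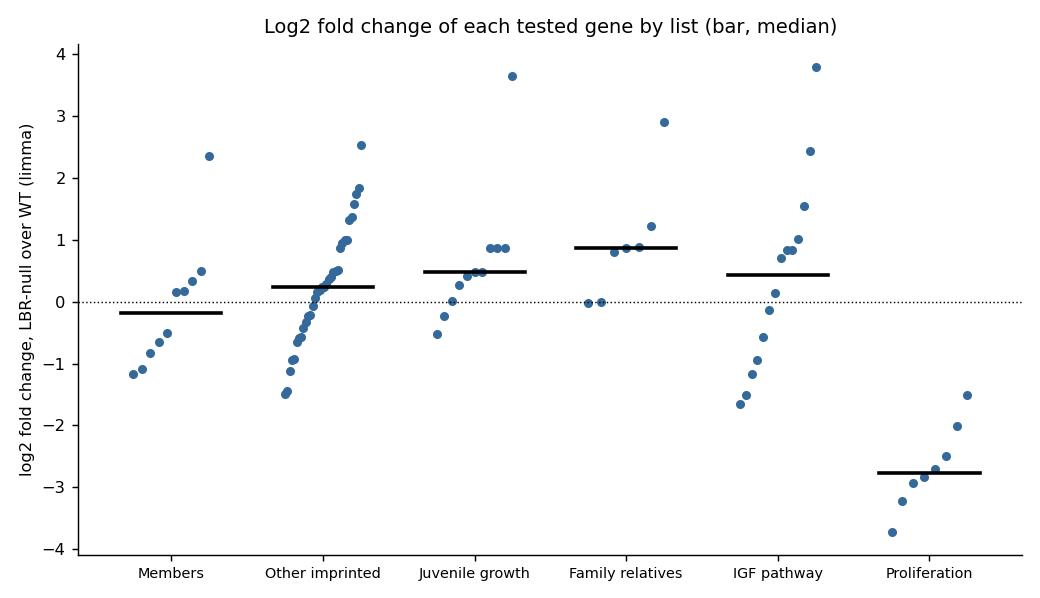
Log2 fold change (limma, LBR-null over WT, vertical axis) of each tested gene, by list, with the median of each list as a bar. The members have a median of -0.17 with Peg3 at the top, the relatives lie at or above 0 but for values near -0.02, and all 8 cell-cycle genes lie below -1.5.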

How the data were processed

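For each library the authors deposited 1 file with a signal per gene, which holds counts scaled by DESeq2 1.25.1 after alignment by STAR 2.6.0 on the mm9 build, as the submitters' processing notes name them. The counting program and its annotation are not given in the sources used here. All values (100%, within 0.01 read) were whole multiples of 1 read, so reads were recovered. Depth per library is in the report and sets the counting error only. Libraries were averaged within a mouse, and genes with a mean of at least 5 over mice (17283) were tested with limma 3.58.1 on log2(normalized count + 1) with 2 residual degrees of freedom, 3 mice against 1. An exact permutation test of 3 mice against 1 cannot reach 0.05. Fold changes on this scale understate those of low genes. edgeR 4.0.16 and DESeq2 1.42.0 were run on reads summed per mouse, and the 3 tools were first run on simulated counts with known changes. No file column was left out. The members and lists were chosen with earlier results of these data known. Named genes are the members, the 3 highest and 3 lowest by log2 fold change of each list, the 3 nearest profiles of the 3 members with the largest change, and genes said to be added later (heart muscle, Zim2 and Zim3, genes nearest to Igf2 and H19, and single markers). Positions and exon lengths are from GENCODE vM1 (mm9).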

Additional observations from a re-analysis of the deposited data

Results flagged for a closer look

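Among the 5 LBR-null libraries, the Mest count of library 2 of mouse 4001 (117.1 normalized counts) lay farther from the rest than Dixon's test allows, while library 1 of the same mouse was at 90.7 and the others at 87.5 to 93.9. Chance marks about 1 in 20 such groups, 10 genes were looked at, and libraries of 1 mouse are not independent. All 5 values stayed below both WT libraries.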

How the results depend on the processing

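With 1 WT mouse, 3 LBR-null mice and 2 residual degrees of freedom, the lone WT mouse was assumed to vary like the others, and each WT value rests on 1 animal. Of 210 member values recomputed over 21 other settings with a test, 190 kept their direction and their side of the threshold, 11 passed it only there and 9 turned direction. Pseudocount, filter, TMM scaling and equal library totals changed no call of a member.

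Members called numbered 0 with limma and edgeR, 2 with DESeq2 (Peg3 and Mest) and 1 (Mest) with either count tool without mouse 4001, a choice made after seeing the data. Of 73 tested genes of the other lists, 0 were called with limma and edgeR and 16 with DESeq2 (3.24% of all genes higher, 3.48% lower). Without mouse 4001 they numbered 14 with edgeR (2.57% and 4.31%) and 15 with DESeq2 (2.92% and 4.48%). The median of the members moved to 0.161 with edgeR and 0.166 with DESeq2, and H19 turned to 0.51 in both. Leaving out 1 mouse or library at a time gave 0 to 1 members called (Peg3 without mouse 4002), 0 to 14 genes of the other lists called (14 without mouse 4002, against 2.29% of all genes higher and 1.85% lower, and 13 without mouse 4001, against 2.52% and 3.48%), 2 to 6 members at least 2-fold apart (6 without mouse 4002), 4 to 7 members outside the WT range (7 without mouse 4001) and a median of -0.269 to 0.152 (0.152 without mouse 4007). Over the same settings Igf2 ranged from -0.31 to 0.95, H19 from -1.96 to 0.31 and Meg3 from -0.02 to 0.32, with the turns at mouse 4001 for Igf2 and Meg3 and at mouse 4007 for H19. Without mouse 4001, both count tools gave -0.32 for Igf2 and -0.04 for Meg3. Mouse 4002 alone against WT, with no test, gave 8 members outside the WT range, -0.19 for Igf2, 0.05 for Dlk1, -0.05 for Meg3 and -0.06 for Grb10. The cause of these turns was not tested.

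The titles number the libraries within a mouse, and these numbers do not pair mice: differences between library 1 and 2 correlated across genes at -0.04 to 0 between mice. With the 6 numbered libraries taken as replicates, a replicate block gave 3 members called (Peg3, Mest and Ndn) and 27 genes of the other lists, and no block gave 3 and 30, where 15.8% and 17.6% of all genes were called. Libraries of a mouse are not independent, so p-values are too small there.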
